A study of Homo sapiens with 6 samples.

Results

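The MHC class I presentation genes HLA-B, HLA-C, HLA-E, HLA-F, B2M, TAP1, TAP2, TAPBP and PSMB9 were described in U2OS cells, a human osteosarcoma line, with and without silencing of SQLE, which encodes the sterol enzyme squalene epoxidase. These 9 genes were chosen by name, as heavy chains, light chain, peptide transporter, tapasin and immunoproteasome, and each was found once among the 19937 genes of the count table. All 9 passed the filter on low counts, as did 12450 genes in all. The RNA-seq compared 3 libraries of U2OS cells stably carrying a hairpin against SQLE (shSQLE) with 3 libraries of U2OS cells carrying a non-targeting scrambled hairpin (shControl). Both hairpins were delivered by lentivirus in the pGIPZ vector, followed by puromycin selection, so vector and drug were shared by all 6 libraries. A single hairpin served for SQLE, so the loss of SQLE cannot be told apart from other effects of that hairpin, and no label says that the libraries came from separate cultures, so the p-values measure a spread that may be technical.

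MHC class I molecules show fragments of a cell's own proteins to CD8 T cells. The proteasome, in part through the interferon-inducible subunit encoded by PSMB9, cuts proteins into peptides, and the TAP1/TAP2 heterodimer pumps these peptides into the endoplasmic reticulum. There tapasin (TAPBP) holds the transporter beside the empty heavy chain and its light chain beta-2-microglobulin (B2M) until a peptide fits, and many tumours are known to carry low levels of these genes.

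Of the 9 genes, TAP1 was the only one whose mRNA fell in shSQLE cells past the threshold, to 55.4% of its shControl level, while TAP2, which encodes the other chain of the same transporter, was at nearly the same mean in both groups. HLA-B, HLA-C, HLA-E, B2M, TAPBP and PSMB9 had lower means in shSQLE and HLA-F and TAP2 slightly higher ones, and none of these 8 differences passed the test.

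The genes except B2M lie in the MHC region on chromosome 6 (hg38, GENCODE), and B2M lies at chr15:44711358-44718851 on the plus strand. TAP1, at chr6:32845209-32853816 on the minus strand, and PSMB9, at chr6:32844136-32859851 on the plus strand, overlap each other without shared exon bases and are read in opposite directions. Their RefSeq start sites are 488 bases apart. The sequences upstream of the start sites are shown because they are where the known class I regulators bind, and because neighbours such as TAP1 and PSMB9, or partners such as TAP1 and TAP2, can be set side by side. Each is the 250 bases before the RefSeq start (GRCh38.p14), written 5′ to 3′ on the strand of the gene. Capitals mark letters of 4 motifs searched on both strands, which may overlap: the core of the interferon response element (GAAANNGAAA), the NF-kB consensus, the CCAAT box (CCAAT) and the X2 or cyclic AMP response core (TGACG).
TAP1, chr6:32853705-32853954, minus strand: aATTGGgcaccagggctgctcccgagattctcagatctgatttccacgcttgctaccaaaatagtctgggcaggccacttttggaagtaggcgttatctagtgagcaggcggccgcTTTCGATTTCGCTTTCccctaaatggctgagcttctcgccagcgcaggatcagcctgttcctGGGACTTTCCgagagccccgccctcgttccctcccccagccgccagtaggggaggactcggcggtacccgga
TAP2, chr6:32838740-32838989, minus strand: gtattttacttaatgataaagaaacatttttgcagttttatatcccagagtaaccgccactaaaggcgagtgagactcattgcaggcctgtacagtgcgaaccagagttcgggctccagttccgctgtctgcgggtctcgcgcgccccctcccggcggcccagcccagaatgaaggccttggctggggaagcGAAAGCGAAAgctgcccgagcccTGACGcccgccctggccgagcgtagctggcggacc
PSMB9, chr6:32853942-32854191, plus strand: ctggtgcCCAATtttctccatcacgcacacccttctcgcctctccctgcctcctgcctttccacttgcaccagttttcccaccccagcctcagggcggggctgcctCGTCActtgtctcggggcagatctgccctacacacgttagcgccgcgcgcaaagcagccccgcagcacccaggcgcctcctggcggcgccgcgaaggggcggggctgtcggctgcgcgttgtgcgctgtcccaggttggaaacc
B2M, chr15:44711267-44711516, plus strand: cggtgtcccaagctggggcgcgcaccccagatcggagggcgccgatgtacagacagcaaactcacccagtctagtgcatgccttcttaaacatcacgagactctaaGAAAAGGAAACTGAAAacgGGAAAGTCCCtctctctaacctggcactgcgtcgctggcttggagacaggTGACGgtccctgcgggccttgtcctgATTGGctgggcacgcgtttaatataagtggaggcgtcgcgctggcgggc
HLA-B, chr6:31357180-31357429, minus strand: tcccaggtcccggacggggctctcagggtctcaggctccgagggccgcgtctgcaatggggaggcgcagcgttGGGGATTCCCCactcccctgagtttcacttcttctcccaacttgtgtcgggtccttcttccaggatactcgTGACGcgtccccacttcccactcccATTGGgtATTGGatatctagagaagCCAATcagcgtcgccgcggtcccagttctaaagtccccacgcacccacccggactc
HLA-C, chr6:31272093-31272342, minus strand: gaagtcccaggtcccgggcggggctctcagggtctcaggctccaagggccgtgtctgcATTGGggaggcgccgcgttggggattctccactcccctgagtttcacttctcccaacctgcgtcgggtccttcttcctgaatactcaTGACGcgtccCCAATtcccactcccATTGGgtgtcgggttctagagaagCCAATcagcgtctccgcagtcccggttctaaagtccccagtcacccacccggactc

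The upstream sequences fell into different patterns. HLA-B, HLA-C and B2M held the X2 core with a CCAAT box at most 30 bases away, the kind of layout read by the class I transactivator complex. This was so for 3.41% of 35114 RefSeq promoters. The windows searched, in these genes and in all promoters, also held a short stretch after the start that is not shown above. The interferon element core, which 3.57% of those promoters held, was found at 2 overlapping positions in each of TAP1, B2M and TAPBP, at 1 in TAP2 and at 1 in HLA-F, and these letters were not in the windows of HLA-B, HLA-C or PSMB9. The NF-kB consensus was matched in TAP1, B2M and TAPBP and, once on each strand at overlapping bases, in HLA-B, against 3.05% of all promoters. CCAAT alone was in 34.6% and TGACG alone in 24.6% of all promoters. So the windows of TAP1 and B2M share the interferon and NF-kB letters, and the window of PSMB9, the neighbour of TAP1, holds neither. The RefSeq start sites of TAP1 and PSMB9 are 488 bases apart and face away from each other. The TAP1 matches, 134, 128 and 72 bases upstream of its start, therefore lie upstream of the PSMB9 start too, beyond the PSMB9 window. A match is a description of the letters and says nothing about binding in these cells. The promoter table held 8 of the 9 genes, and HLA-E was not in it.

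**Figure D1:**
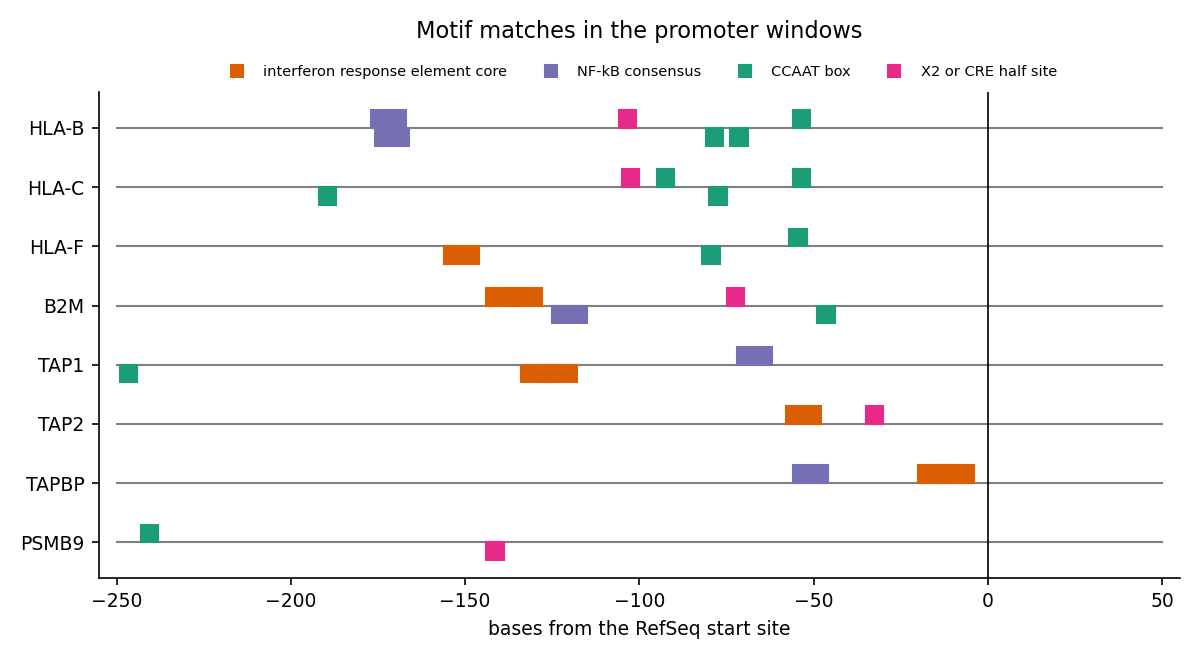
Matches to the 4 motifs in the promoter windows of 8 genes, plotted by distance in bases from the RefSeq start site (0), with boxes above the line for the strand of the gene and below it for the other strand. TAP1, B2M and TAPBP carry the interferon element core and the NF-kB consensus close together. In that order, their first interferon match begins 134, 144 and 20 bases upstream. HLA-B and HLA-C carry the X2 core 106 and 105 bases upstream.

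The libraries held between 12212378 and 14393292 counts on genes. SQLE itself had 1349, 1867 and 1924 normalized counts in the shControl libraries and 229, 204 and 219 in the shSQLE libraries, a log2 fold change of -2.98 (SE 0.17, adjusted p = 2.99e-04 by the edgeR quasi-likelihood test with Benjamini-Hochberg adjustment). Normalized counts are counts scaled to a common library size, and adjusted p-values were taken over all 12450 genes. One library stood apart: against each of the other 2 shControl libraries, the counts of shControl replicate 1 differed by a chi-square of 51.3 and 60.8 per degree of freedom, where those 2 differed by 2.76 from each other. Relative to the mean of the 6 libraries, its counts also rose with the GC content of the gene, by 0.29 on the log2 scale per 10 points of GC. On the same relative scale the other 5 libraries lay between -0.18 and 0.086. The 9 genes are therefore given with and without that library. Among the shSQLE libraries, replicate 3 differed from replicates 1 and 2 by 9.44 and 15.2 per degree of freedom, where these differed by 3.31, and it was the lowest of the 6 for HLA-B, HLA-C, HLA-E, HLA-F, B2M, TAPBP and PSMB9. Of the cell type markers, PTPRC, CD3E and MS4A1 were at 0 in all 6 libraries; these are markers of blood cells. Of the 8 mesenchymal and osteoblast lineage markers, ALPL, COL1A2 and THY1 were at or near 0 and 5 were tested: VIM had a log2 fold change of 0.17 (adjusted p = 0.589), SPARC -0.28 (adjusted p = 0.185), RUNX2 -0.29 (adjusted p = 0.516) and CDH2 -0.48 (adjusted p = 0.215), and COL1A1 was called lower at -0.65 (adjusted p = 0.0452). The part of these in the results was not tested. Of the 4 epithelial markers, EPCAM alone passed the filter on low counts (log2 fold change 0.40, adjusted p = 0.362). The 11 blood and immune markers summed to between 97.7 and 125 normalized counts in shControl and between 62.7 and 73.9 in shSQLE, most of them from ITGAX, while PTPRC, the defining marker, was at 0 throughout. As the samples are bulk RNA, fewer cells with a transcript and less of it per cell cannot be told apart.

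B2M was by far the most abundant of the 9 per unit of transcript length. Its mean was 316 ± 5.80 RPKM (reads per kilobase of transcript and scaled to library size, computed here, SD, n = 3) in shControl. HLA-C followed at 73.3 ± 18.4 RPKM, and HLA-B at 56.4 ± 17.2 RPKM, and the libraries of HLA-C and HLA-B overlapped. HLA-E stood at 31.9 ± 7.02 RPKM and TAPBP at 30.6 ± 8.55 RPKM, which is within their spread. The transporter and immunoproteasome genes, whose products act before the heavy chains are filled, were lower than the chains HLA-B, HLA-C and HLA-E. PSMB9 at 11.7 ± 4.47, TAP1 at 10.8 ± 2.16 and TAP2 at 9.79 ± 1.05 RPKM were also within each other's spread. HLA-F was lowest, at 2.69 ± 0.375 RPKM. In shSQLE cells the transporter chains no longer lay together, since TAP1 was at 5.98 ± 0.445 RPKM and TAP2 at 10.1 ± 0.298 RPKM. RPKM compares genes only if reads over the whole transcript were counted. Of the windows of read length in the TAP2 transcript, 34.1% are shared with an overlapping gene. For TAPBP, HLA-F, TAP1 and HLA-B, 37.8%, 17.7%, 17% and 8.8% are shared with overlapping genes that are not in the count table. The RPKM of TAP2 and of these genes may be too low, which was not tested.

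TAP1 encodes the first chain of the peptide transporter. It had 480, 355 and 336 normalized counts in shControl replicates 1 to 3 and 202, 234 and 214 in shSQLE replicates 1 to 3. All 3 shSQLE libraries lay below all 3 shControl libraries, and the shSQLE libraries lay close together. The means were 391 ± 78.2 and 216 ± 16.1, a log2 fold change of -0.85 (SE 0.17, 95% interval -1.24 to -0.46), with an adjusted p of 0.0398 by the edgeR quasi-likelihood test. Without shControl replicate 1 it was -0.68 with an adjusted p of 0.00109. The call is close to the threshold: it was lost when shControl replicate 2 or 3 or any 1 shSQLE library was left out, with adjusted p-values of 0.0989, 0.0584, 0.224, 0.141 and 0.201 in that order of controls and then shSQLE replicates 1, 2 and 3. In the canonical transcript, 17% of windows as long as a read were shared with PSMB8-AS1, which runs antisense to it, and whether reads were counted by strand was not given in the sources used here.

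TAP2 encodes the second chain, without which TAP1 alone does not form the transporter. It had 656, 768 and 810 normalized counts in shControl and 769, 744 and 789 in shSQLE. The groups overlapped, and the lowest value was shControl replicate 1, the library that was highest for TAP1. Its log2 fold change was 0.043 (95% interval -0.24 to 0.32, adjusted p = 0.922), and the sign turned when shControl replicate 1 was left out (-0.039) and when libraries were scaled by their totals alone (-0.0018). Of its read-length windows, 34.1% are shared with an overlapping gene on the same strand, ENSG00000250264, which had 2 counts in 1 library and 0 in the rest.

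The ratio of TAP1 to TAP2 counts, which does not depend on how libraries are scaled, was 0.732, 0.463 and 0.415 in shControl and 0.262, 0.314 and 0.271 in shSQLE. The highest shSQLE value lay below the lowest shControl value. A ratio does not remove a trend on GC content, and the transcripts of TAP1 and TAP2 have 57.4% and 48.9% GC. The highest ratio was in shControl replicate 1, the library with the highest GC trend, and the part of this trend was not tested. On the log2 scale the means differed by -0.89, and by -1.05 to -0.64 when 1 library was left out. This ratio was chosen after the values of both genes were seen, so no test is given.

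**Figure D2:**
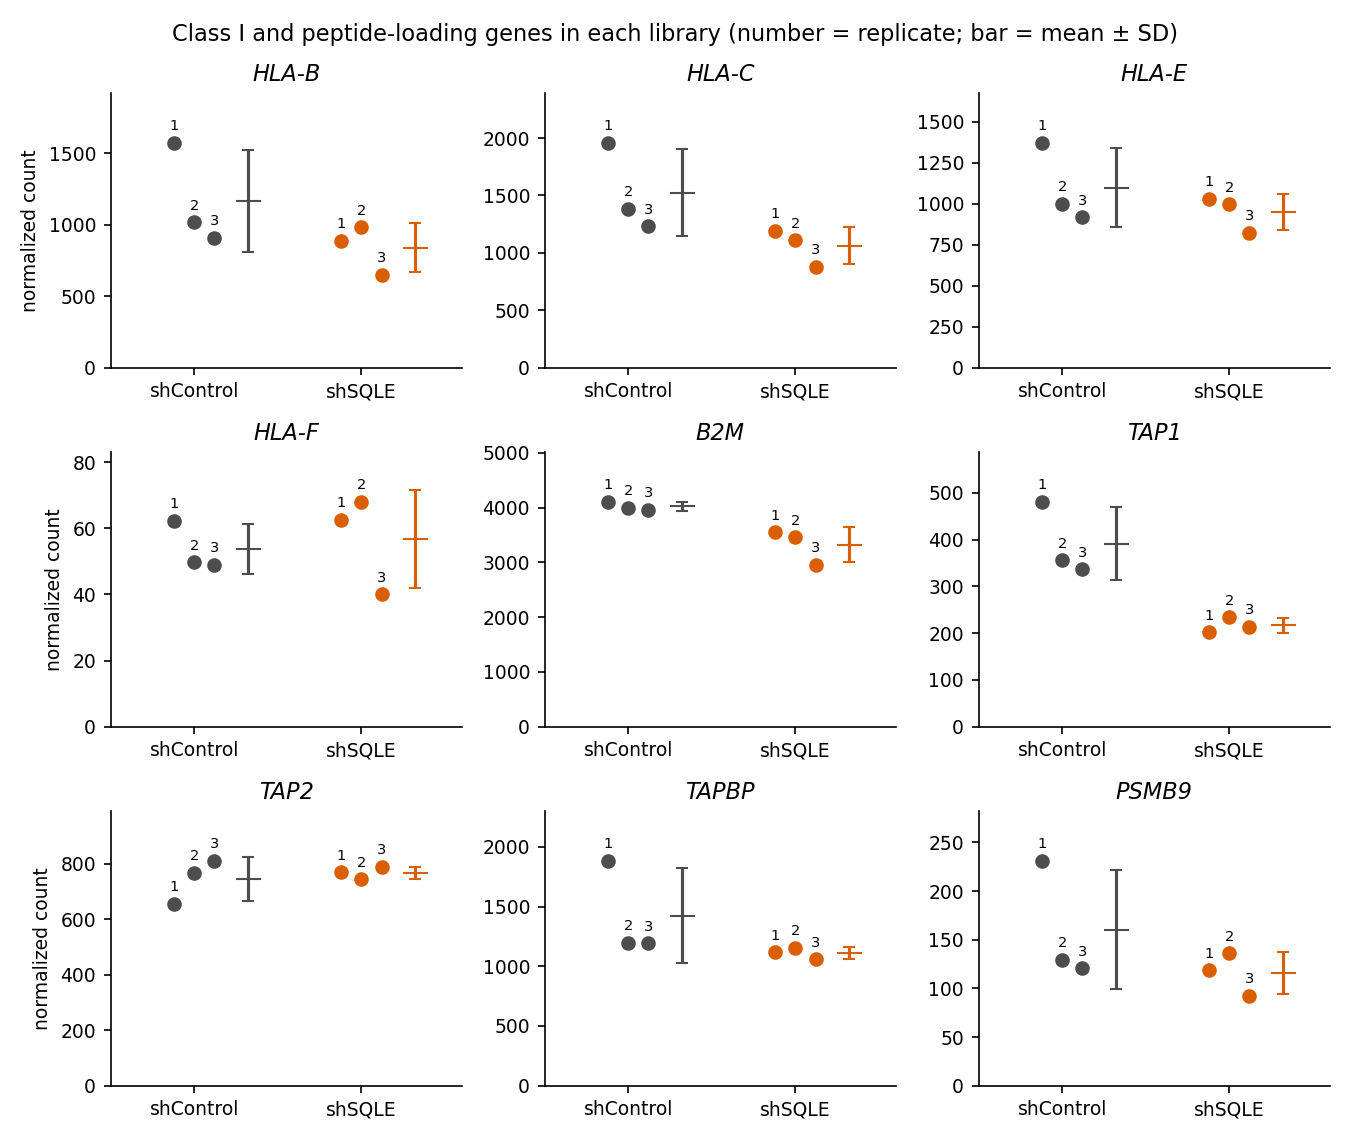
Normalized counts of the 9 genes in each library, with grey points for shControl, orange points for shSQLE, numbers for the replicate and bars for the mean ± SD of 3 libraries; every axis starts at 0. The groups do not overlap for TAP1, B2M, HLA-C and TAPBP. The highest library is shControl replicate 1 for HLA-B, HLA-C, HLA-E, TAP1, TAPBP, PSMB9 and, by little, B2M, and it is the lowest for TAP2.

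B2M encodes the light chain that every class I heavy chain needs to reach the cell surface. It had 4104, 3998 and 3962 normalized counts in shControl and 3551, 3462 and 2953 in shSQLE. The control libraries were almost level, shControl replicate 1 included, and every shSQLE library was below them. The means were 4021 ± 73.8 and 3322 ± 323, a log2 fold change of -0.28 (SE 0.11, 95% interval -0.52 to -0.029). The unadjusted p was 0.0330 and the adjusted p 0.279 by the edgeR quasi-likelihood test, so the difference did not pass over all genes. Without shControl replicate 1 the log2 fold change was -0.26 and the adjusted p 0.0368, and without shSQLE replicate 3 they were -0.18 and 0.628. Its transcript has 39.1% GC, the lowest of the 9, which otherwise lie between 48.9% (TAP2) and 60.1% (HLA-C).

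HLA-C encodes a classical heavy chain that also serves as a ligand of inhibitory receptors on natural killer cells. It had 1957, 1385 and 1233 normalized counts in shControl and 1194, 1112 and 881 in shSQLE. No shSQLE library reached a shControl library, although shSQLE replicate 1 and shControl replicate 3 were close. The log2 fold change was -0.52 (SE 0.20, unadjusted p = 0.0297, adjusted p = 0.263), and -0.30 with an adjusted p of 0.0620 without shControl replicate 1.

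HLA-B, a classical heavy chain and the most polymorphic one, had 1574, 1019 and 910 normalized counts in shControl and 887, 984 and 652 in shSQLE. The groups overlapped, with shControl replicate 1 far above the rest. Its log2 fold change of -0.47 (SE 0.24, adjusted p = 0.425) became -0.20 without that library. HLA-E, which presents leader peptides of other class I chains to natural killer cells, had 1371, 1001 and 917 normalized counts in shControl and 1029, 996 and 823 in shSQLE. These overlapped too, and the log2 fold change of -0.21 (adjusted p = 0.680) became -0.014 without shControl replicate 1. HLA-F, a little expressed non-classical chain, had 62.4, 49.7 and 49.0 normalized counts in shControl and 62.7, 68.0 and 40.1 in shSQLE. The shSQLE libraries took both the highest and the lowest places, and the 95% interval of its log2 fold change, -0.47 to 0.66, was the widest of the heavy chains.

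Class I genes are close paralogs, which bears on how their reads are assigned. The coding sequences of HLA-B and HLA-C were 92.5% identical in the reference, and those of HLA-E and HLA-F 82.6%, the lowest of the pairs among the 4 chains. The longest identical run between HLA-B and HLA-C was 66 bases, and no window of 151 bases, the read length, was shared between 2 of these chains. How the alleles carried by U2OS compare with the reference, and how reads with several matches were counted, was not tested. The counts of HLA-B, HLA-C, HLA-E and HLA-F were therefore also summed. The sum was 4964, 3454 and 3110 normalized counts in shControl and 3173, 3160 and 2396 in shSQLE. It followed the single chains, with shControl replicate 1 high, shSQLE replicate 3 low and an overlap between the groups. Its log2 fold change was -0.40 (SE 0.20, adjusted p = 0.417), and -0.17 with an adjusted p of 0.253 without shControl replicate 1, and -0.26 without shSQLE replicate 3.

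Within that sum the mix of chains differed a little between the groups. HLA-C made up 39.7% ± 0.330 of the counts of the 4 chains in shControl and 36.5% ± 1.24 in shSQLE (SD, n = 3), with no overlap. HLA-B made up 30.2% ± 1.34 and 28.8% ± 2.08, with overlap. The shares of the non-classical chains differed the other way. HLA-E made up 28.7% ± 0.974 and 32.8% ± 1.44, and HLA-F 1.42% ± 0.161 and 1.93% ± 0.242, both higher in every shSQLE library. These shares were computed after the single chains were seen and carry no test.

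TAPBP encodes tapasin, which bridges TAP and the heavy chain. It had 1882, 1196 and 1192 normalized counts in shControl and 1117, 1154 and 1060 in shSQLE. The groups did not overlap, yet shControl replicates 2 and 3 were close to shSQLE replicate 2, and the distance between the means rested on shControl replicate 1. The log2 fold change of -0.36 (SE 0.19, adjusted p = 0.451) became -0.10 without it. An antisense transcript, ENSG00000289100, shares 37.8% of the read-length windows of TAPBP.

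PSMB9 encodes an immunoproteasome subunit that takes the place of the constitutive subunit PSMB6. It had 231, 129 and 121 normalized counts in shControl and 118, 136 and 92.5 in shSQLE. Apart from shControl replicate 1 the groups were interleaved. The log2 fold change was -0.46 (SE 0.28, adjusted p = 0.535), and -0.11 without that library. The PSMB9 to PSMB6 ratio was 0.0702, 0.0621 and 0.0604 in shControl and 0.0430, 0.0444 and 0.0385 in shSQLE. All shSQLE ratios were lower, and shControl replicate 1 no longer stood far from its group. The log2 difference was -0.61, with a two-sided exact permutation p of 0.1, the smallest that 3 against 3 libraries allow. It ranged from -0.66 to -0.55 when 1 library was left out.

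The other immunoproteasome subunits, which are no members, were set against their constitutive counterparts after this was seen. PSMB8 to PSMB5 was 0.240, 0.243 and 0.237 in shControl and 0.192, 0.179 and 0.170 in shSQLE. PSMB10 to PSMB7 was 0.0130, 0.0163 and 0.0199 in shControl and 0.0100, 0.0115 and 0.00699 in shSQLE. Like PSMB9, both were lower in each shSQLE library than in each shControl library, although by the edgeR test none of PSMB8 (log2 fold change -0.27, adjusted p = 0.645), PSMB10 (-0.55, adjusted p = 0.427) and PSMB6 (0.16, adjusted p = 0.805) differed past the threshold with all 6 libraries. Without shControl replicate 1, PSMB6 was called higher (0.43, adjusted p = 0.00627), while PSMB8 was at -0.014 and PSMB9 at -0.11, so in that fit only the denominator of the PSMB9 to PSMB6 ratio passed the threshold.

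**Figure D3:**
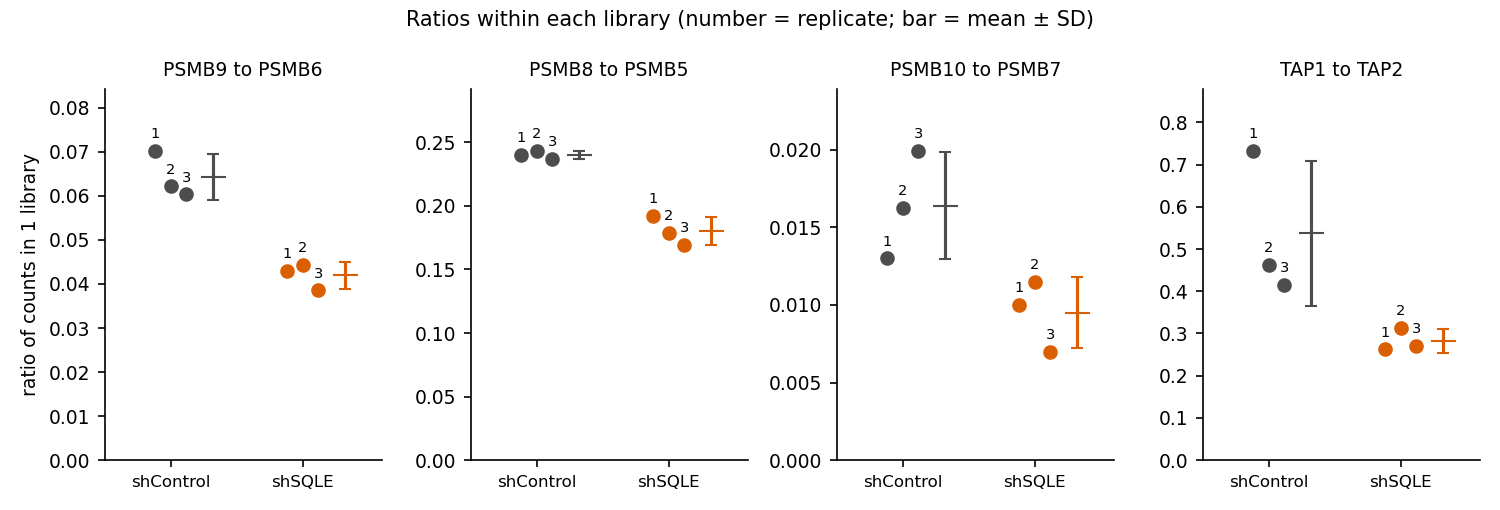
Ratios of counts within each library for the immunoproteasome subunits PSMB9, PSMB8 and PSMB10 over the constitutive subunits they replace, and for TAP1 over TAP2, with numbers for the replicate and bars for the mean ± SD of 3 libraries. In all 4 panels the 3 shSQLE ratios lie below the 3 shControl ratios, from a shControl mean of 0.0643 to 0.0420 for PSMB9 to PSMB6.

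As a group, 7 of the 9 genes had lower and 2 higher means in shSQLE, and their median log2 fold change was -0.36, against -0.0094 over all genes tested. The 1 gene called lower compares with 2.84% of all genes called lower, and 0 of 9 were called higher against 0.369% of all genes. DESeq2 also called 1 of the 9 lower (TAP1), against 4.56% of all genes, and 0 higher, against 1.3%. HLA-C, B2M and TAP1 had an unadjusted p under 0.05 in the lower direction, 3 of 9 against 9.89% of all genes. In the higher direction it was 0 of 9 against 601 of 12450 genes. The members were chosen with earlier results of these data known, so the shares in this paragraph only describe them. In HLA-C, B2M, TAP1 and TAPBP every shSQLE library was below every shControl library, 4 of 9 against 12.1%. When counts were offset for the trend of each library on GC content and gene length, 5 of the 9 were called lower, namely TAP1, HLA-C, HLA-B, B2M and PSMB9, with adjusted p-values between 4.18e-04 and 0.0446. In that fit 8.67% of all genes were called lower and 12.8% higher. Without shControl replicate 1, TAP1 and B2M were called, both lower, where 18.3% of all genes were called lower and 15.6% higher, and the median of the 9 was -0.11.

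**Figure D4:**
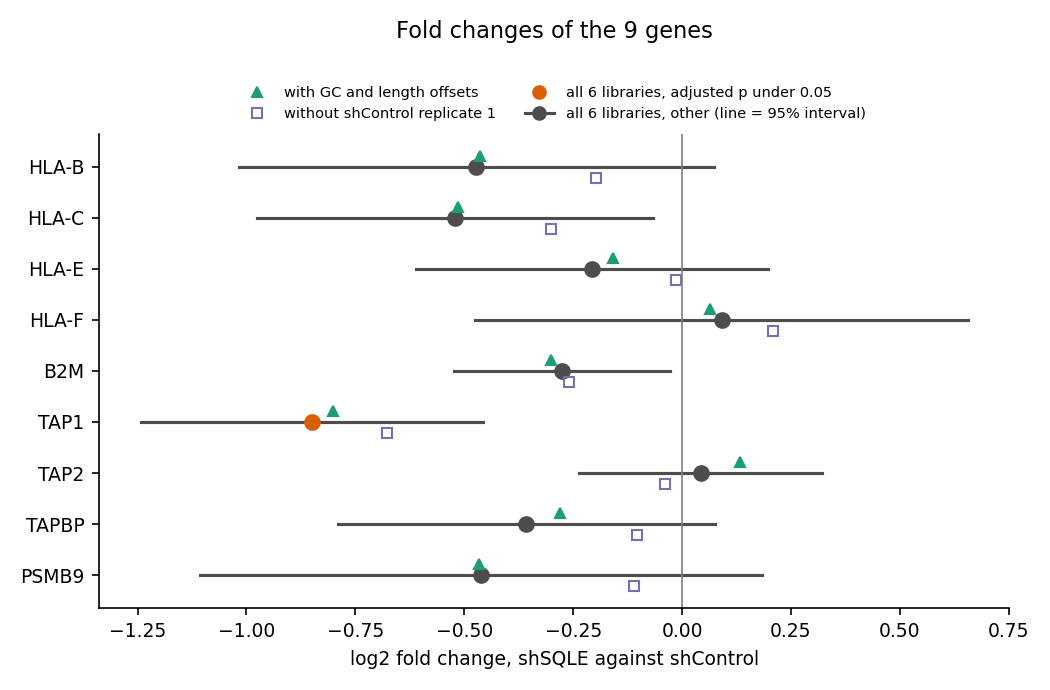
Log2 fold changes of the 9 genes, shSQLE against shControl, with the 95% interval from the edgeR fit of 6 libraries (circles and lines), the value with offsets for GC content and length (triangles) and the value without shControl replicate 1 (squares). TAP1 keeps the lowest value in each of the 3 fits, from -0.85 to -0.68. TAP1, HLA-B, HLA-C, HLA-E, TAPBP, PSMB9 and, by little, B2M move towards 0 without that library.

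The 9 genes did not share a single profile. Centred on its own mean over the 6 libraries, the average of the 9 stood at 0.45 on the log2 CPM scale in shControl replicate 1, between -0.090 and 0.049 in shControl replicates 2 and 3 and shSQLE replicates 1 and 2, and at -0.36 in shSQLE replicate 3. TAP2 and TAP1 were farthest from that average, with root mean square differences of 0.32 and 0.27, and HLA-E was nearest with 0.078. The 5 genes outside the list nearest to the average profile over the 6 libraries were PPP1R13L, DBNDD1, SEC61B, LAMB3 and TNK2, with root mean square differences between 0.0296 and 0.0495.

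**Figure D5:**
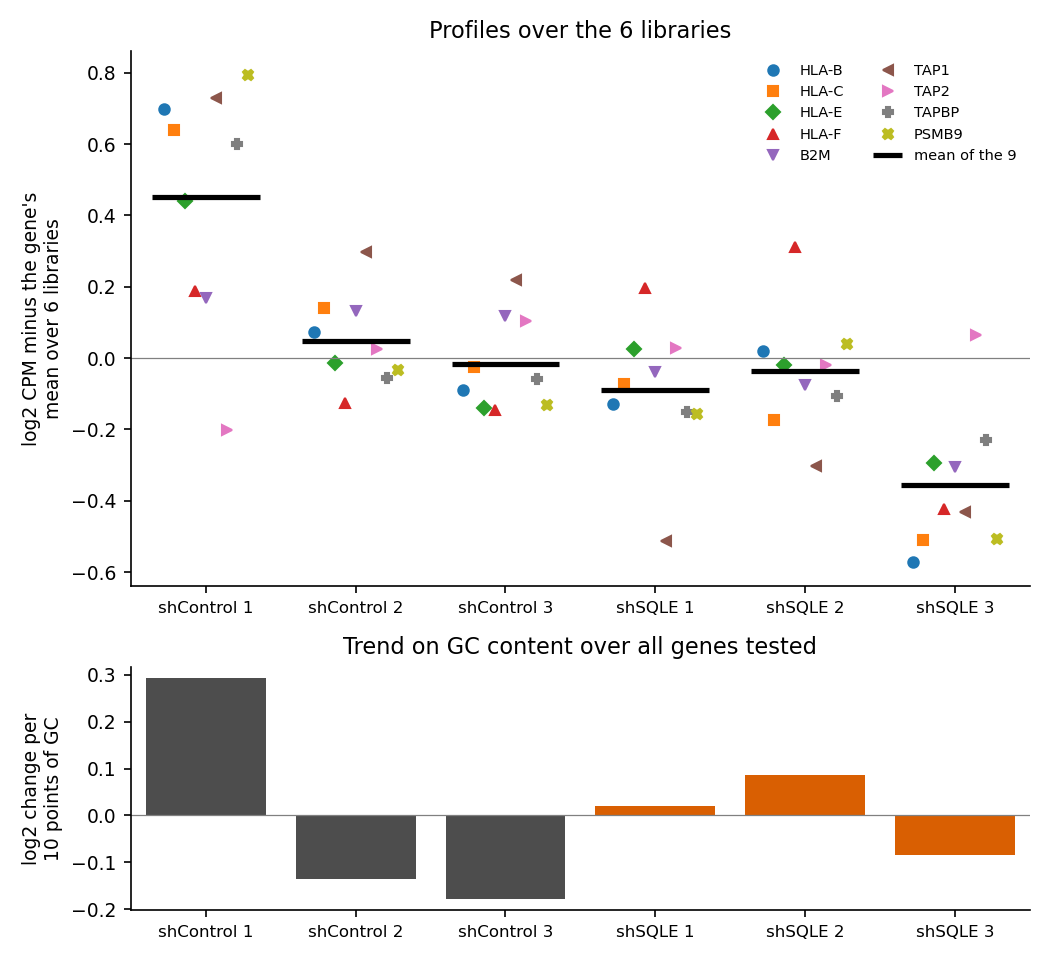
Upper panel, log2 CPM of each of the 9 genes minus its mean over the 6 libraries, with black bars for the average of the 9. Lower panel, the slope of all tested genes on GC content in each library, relative to the mean of the 6 libraries. The average is 0.45 in shControl replicate 1, where the GC slope is highest at 0.29, and -0.36 in shSQLE replicate 3, where the slope is -0.085, while the libraries of lowest slope, shControl replicates 3 and 2 (-0.18 and -0.13), have averages of -0.017 and 0.049.

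Other genes of the pathway were read from lists of 78 genes, of which 56 were tested. Among these 56, 34 had lower and 22 higher means in shSQLE, and the median of their log2 fold changes was -0.096. PDIA3 and CTSS were called lower, against 2.84% of all genes, and 0 were called higher. In 14 of the 56 every shSQLE library was below every shControl library, beside 12.1% of all genes. In 4 of the 56 every shSQLE library was above, beside 1247 of 12450 genes. An unadjusted p under 0.05 was found for 13 in the lower direction, beside 9.89% of all genes, and for 0 in the higher, beside 601 of 12450. DESeq2 called 7 of the 56, where it called 5.86% of all genes.

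The loading complex partners and editors had a median log2 fold change of -0.57, the lowest of the 7 lists. PDIA3, the disulfide isomerase bound to tapasin in the loading complex, had 11475, 11477 and 10893.5 normalized counts in shControl and 6569, 6782 and 6334 in shSQLE, a log2 fold change of -0.78 (SE 0.093, adjusted p = 0.00464). The shControl libraries, replicate 1 included, were level, and every shSQLE library lay below them. Of 13 alternatives, the call was lost in 2, without shSQLE replicate 1 or 3 (adjusted p = 0.0584 and 0.0504). Of the 6 genes of that list, 5 had an unadjusted p under 0.05 in the lower direction, beside 9.89% of all genes. Among them was the chaperone CANX (log2 fold change -0.62, adjusted p = 0.145). In that list 1 gene was called lower, beside 2.84% of all genes. PDIA3 and CANX serve all glycoproteins that fold in the endoplasmic reticulum, not class I alone.

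The peptide trimming enzymes ERAP1 and ERAP2, which shorten peptides inside the endoplasmic reticulum, had log2 fold changes of -0.73 (adjusted p = 0.0817) and -0.72 (adjusted p = 0.0573). ERAP2 had between 89.3 and 93.1 normalized counts in shControl and between 51.4 and 58.8 in shSQLE, so its groups were tight and well apart, and it still missed the threshold over all genes. Of the 6 trimming enzymes, 4 had lower means, 2 had an unadjusted p under 0.05 in the lower direction and 0 were called. Over all genes, 9.89% had such a p in the lower direction and 2.84% were called lower. Of the 9 proteasome subunits and activators 0 were called and 0 had an unadjusted p under 0.05, and PSME1, part of the interferon-inducible activator, had -0.38 (adjusted p = 0.448).

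Of the 15 transcription regulators, 10 had lower and 5 higher means, 4 had an unadjusted p under 0.05 in the lower direction, and 0 were called. Such a p was found for 9.89% of all genes, and 2.84% of all genes were called lower. IRF1, an interferon-induced factor that binds the interferon element, had 491, 324 and 300.2 normalized counts in shControl and 181, 229 and 171 in shSQLE, a log2 fold change of -0.94 (SE 0.22, adjusted p = 0.0713). STAT2, part of the factor that carries type I interferon signals, had -0.59 (adjusted p = 0.0554). NLRC5, the class I transactivator, had 173, 154 and 142 normalized counts in shControl and 107, 108 and 115 in shSQLE, a log2 fold change of -0.50 (SE 0.15, adjusted p = 0.139). None of these 3 overlapped between groups. Among the 15 regulators, the groups were free of overlap for 4 with lower and 1 with higher values in shSQLE. Over all genes this held for 12.1% in the lower direction and for 1247 of 12450 in the higher.

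Other class I and class I-like genes showed no common direction, with 4 lower and 5 higher of 9 tested, 0 called and 0 with an unadjusted p under 0.05. ULBP1, a stress-induced ligand of the receptor NKG2D, had a log2 fold change of 0.44 (adjusted p = 0.370), and PROCR, a class I-like receptor of protein C, had 0.37 (adjusted p = 0.356). Among the 9 class I turnover genes 0 were called and 1 had an unadjusted p under 0.05, in the lower direction. Such a p was found for 9.89% of all genes, and 2.84% of all genes were called lower. The ubiquitin ligase SYVN1 had -0.44 (adjusted p = 0.139) and TMEM127 -0.19 (adjusted p = 0.531). Class II presentation genes were little expressed: 5 of the 14 listed genes were at 0 in all 6 libraries and only CTSS and CIITA could be tested. CTSS, the lysosomal protease cathepsin S, had 281, 297 and 279.6 normalized counts in shControl and 132, 149.8 and 149.0 in shSQLE, a log2 fold change of -0.99 (SE 0.13, adjusted p = 0.00734). It lost its call without any 1 shSQLE library, with adjusted p-values between 0.0559 and 0.0710. CIITA, the class II transactivator, had 0.35 (adjusted p = 0.821).

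Several of these pathway genes passed the threshold once shControl replicate 1 was left out, a fit in which 33.9% of all genes were called. Of all genes, 18.3% were called lower in that fit and 15.6% higher. Without shControl replicate 1, 25 of the other pathway genes were called, a count not split by direction here. The lower ones included CANX (log2 fold change -0.80, adjusted p = 4.65e-05), ERAP1 (-0.89, adjusted p = 7.09e-05), ERAP2 (-0.72, adjusted p = 0.00944), IRF1 (-0.69, adjusted p = 0.00281), STAT2 (-0.56, adjusted p = 0.00370), NLRC5 (-0.43, adjusted p = 0.0350) and SYVN1 (-0.38, adjusted p = 0.0139). PROCR (0.54, adjusted p = 0.00252) and PSMB6 (0.43, adjusted p = 0.00627) were called higher. PDIA3 and CTSS were again called lower, ULBP1 (0.28), CIITA (0.67), TMEM127 (-0.16) and PSMB10 (-0.47) were not, and PSME1 moved from -0.38 to -0.14.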

How the data were processed

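Poly(A) RNA of 6 U2OS libraries was sequenced as 151 bp paired-end reads. The authors trimmed reads (fastp 0.20.0), aligned them to hg38 (STAR 2.7.9a) and counted them per gene (featureCounts 2.0), per the submitters' processing notes, and what they deposited are unnormalized whole-number counts for each gene. Strand and multi-mapping settings are not given in the sources used here. Symbols were matched by Ensembl identifier for 19905 of 19937 genes. Counts were filtered with filterByExpr, scaled by TMM and tested with the quasi-likelihood test of edgeR 4.0.16 (R 4.3.3), condition as the only term, Benjamini-Hochberg adjustment over all genes tested and a threshold of 0.05. A log2 CPM used a prior count of 2. RPKM was computed here over the canonical GENCODE transcript. The PSMB9 to PSMB6 ratio was tested by exact permutation of the libraries. The fits were also run on simulated counts that held no trend on GC content and no outlying library. That check does not bear on these features of the real libraries. Alternatives were DESeq2 1.42.0, other scalings and filters, offsets for GC content and length (mgcv 1.9.3), a replicate block and leaving out each library. The members and lists were chosen with earlier results of these data known. Genes named are the 9, SQLE, from each list of other pathway genes those past the threshold and the 2 with the smallest p, fixed partners of the 9, and the 5 genes of nearest profile. The ratios PSMB8 to PSMB5, PSMB10 to PSMB7 and TAP1 to TAP2 were added after values were seen. Some listed genes are not reported here and were left out of the list counts and of the heavy chain sum, which holds the 4 chains among the 9. Promoter sequences are from RefSeq. Precision is limited by counting error and by the spread of 3 libraries per group.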

Additional observations from a re-analysis of the deposited data

How the results depend on the processing

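TAP1 was called lower in 8 of 13 alternatives and had a log2 fold change between -0.94 and -0.68 in all of them, with adjusted p-values from 4.18e-04 to 0.224. The count of the 9 genes past the threshold was 1 with DESeq2, with other scalings and filters and with the replicate block, 5 with offsets for GC content and length, and 0 to 2 when 1 library was left out. Of the other pathway genes, 2 were called, against 7 with DESeq2, 4 with library totals alone, 18 with the GC and length offsets, and 0 to 25 with 1 library left out. Over all genes 400 were called, against 730 with DESeq2, 2667 with the offsets, and 109 to 4264 with 1 library left out, the highest without shControl replicate 1; the cause was not tested. The summed heavy chains passed only with the offsets (log2 fold change -0.38, adjusted p = 0.00608). The planned sum of classical chains alone was not run. The sign turned for TAP2 with library totals alone (-0.0018) and when 1 library was left out for TAP2 (-0.039 to 0.12), CIITA (-0.065 to 0.67) and HLA-F (-0.055 to 0.30), all differences that did not pass in the first place. The median of all genes moved from -0.0094 to 0.064 with the offsets and to -0.050 with library totals alone. Samples with the same replicate number did not deviate together (correlations of 0.14, -0.43 and 0.54), so the numbers were not taken as pairs. With the replicate block 396 genes and, of the 9, TAP1 were called, and the PSMB9 to PSMB6 ratio had an exact permutation p of 0.25, the smallest that design allows. With 3 libraries per group, PSMB9 (SE 0.28) and HLA-F (SE 0.24, at 40.1 to 68.0 normalized counts) had the largest standard errors of the 9.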

Other observations

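Ratios outside the comparisons above describe the balance of the presentation genes within each library, and all were chosen after the values were seen. TAP1 over the sum of HLA-B, HLA-C, HLA-E and HLA-F was 0.0968, 0.103 and 0.108 in shControl and 0.0636, 0.0739 and 0.0892 in shSQLE, so the transporter chain was lower against its clients in every shSQLE library. B2M over the same sum was 0.827, 1.16 and 1.27 in shControl and 1.12, 1.10 and 1.23 in shSQLE, and the groups overlapped. TAP1 over its neighbour PSMB9 was 2.08, 2.75 and 2.79 in shControl and 1.70, 1.72 and 2.31 in shSQLE, which also overlapped.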
